A study of Mus musculus with 12 samples.

Results

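The miRNAs of striated muscle and heart were followed through the sorted embryonic cells of a study of early pancreas development. The members were all rows of the miRNA table whose names belong to miR-1a, miR-1b, miR-133a, miR-133b, miR-133c, miR-206, miR-208a, miR-208b or miR-499, as mature arms or as precursors. This name rule, which uses no measured value, found 9 of 1053 entries. The 5 mature arms were mmu-miR-1a-3p, mmu-miR-1b-5p, mmu-miR-133a-3p, mmu-miR-133a-5p and mmu-miR-206-3p. The 4 precursors were mmu-mir-1a-1, mmu-mir-1a-2, mmu-mir-133a-1 and mmu-mir-133a-2. The names miR-133b, miR-133c, miR-208a, miR-208b and miR-499 matched no row and are not analysed here.

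Small RNA was sequenced from 3 libraries at each of 4 stages, so 12 libraries in all, and every cell sample was sorted for the red fluorescent protein tdTomato that Cre recombinase had switched on. At embryonic day (E) 8.5 the label was Foxa2-CreER, a Cre from the endoderm gene Foxa2 that works only after tamoxifen, and whole embryos were the source. The 3 later stages, E9.5, E10.5 and E11.5, were labelled by Pdx1-Cre, a Cre driven by the pancreatic and duodenal gene Pdx1 without tamoxifen, in cells of the trunk. Their mir-302 genotype is not given in the sources used here, although the crosses involved parents with 1 mir-302 allele replaced by eGFP. Each comparison with E8.5 therefore changed Cre driver, tamoxifen and dissected region along with the stage. Library names carry a number that is particular to each stage, so whatever that number marks cannot be told apart from stage. The text of the study does not say how many embryos each library came from, and the litters are not given in the sources used here.

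In mammals miR-1 and miR-133a are cut from shared primary transcripts, each of which carries 1 hairpin of either kind, and miR-206 is made together with miR-133b from a further locus. Serum response factor, MEF2 and MyoD drive these transcripts in striated muscle, where miR-1 and miR-206 favour differentiation and miR-133 is known for repressing serum response factor. miR-1 and miR-133a are made in both heart and skeletal muscle, whereas miR-206 belongs to skeletal muscle and the myosin-gene miRNAs miR-208a, miR-208b and miR-499 to heart and slow muscle. A miRNA pairs with its targets mainly through its seed, bases 2 to 8 of the mature strand. Cells with a Foxa2 history are not all endoderm, since the gene is also active in the node, the notochord and progenitors of part of the heart. How far such cells contributed here was not tested.

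The seed decides which mRNAs these miRNAs can share, and the study grouped miR-1-3p with miR-206-3p by it. A mature sequence was matched in RefSeq (GRCm38.p6) for 1 of the 5 mature members, miR-206-3p. It is encoded at chr1:20679055-20679076 on the plus strand and is shown with the seed in capitals, followed by the hairpin it is cut from, chr1:20679010-20679082, with the mature 3p arm in capitals.
mmu-miR-206-3p: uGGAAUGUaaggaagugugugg
mmu-mir-206 hairpin: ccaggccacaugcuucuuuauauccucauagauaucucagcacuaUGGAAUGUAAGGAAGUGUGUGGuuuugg

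The mature arm took up bases 46 to 67 of the 73 of the hairpin. Its seed, read as GGAAUGU, was found in 3 of the 1679 mature names of the RefSeq table. Among the 542 deposited mature entries with a sequence in that table, 1 had it, miR-206-3p itself. miR-1a-3p, of the miR-1-3p group that the study places under this seed, had no sequence matched there and is in neither count.

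Each member was placed on the GRCm38 (mm10) assembly with the GENCODE annotation. Mir206 lies on chromosome 1, within an exon of the lincRNA Gm28653 on the same strand, and 3686 bases from Mir133b. Mir1a-1 (chromosome 2, 180389048 to 180389124) and Mir133a-2 (chromosome 2, 180398379 to 180398482) both lie on the plus strand between annotated genes, with 9254 bases between them. The other pair lies on chromosome 18. Mir1a-2 (10785481 to 10785552) and Mir133a-1 (10782909 to 10782976) are both on the minus strand and 2504 bases apart. They fall in introns of the noncoding gene Mir133a-1hg on the same strand and of the protein-coding gene Mib1 on the opposite strand. Mir1b (10785446 to 10785567) covers Mir1a-2 on the opposite strand.

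The libraries differed widely in depth. The E8.5 libraries held 386094 to 594224 counts, those of E9.5 53996 to 80075, those of E10.5 133435 to 267978 and those of E11.5 417743 to 1103383. Levels are therefore given as CPM, the count scaled to a common library total after trimmed-mean (TMM) correction. The level that 3 counts stand for, taken as the most that a count of 0 allows, was 4.34 to 7.75 CPM for libraries of E8.5, 32.0 to 75.9 CPM for E9.5, 11.4 to 25.8 CPM for E10.5 and 2.74 to 6.84 CPM for E11.5. The counts are reads after PCR, so such limits cover counting error only.

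Among the members, miR-1a-3p carried nearly all the signal, with 30472 of 34075 reads (89.4%) over the 12 libraries. The precursors mir-1a-1 and mir-1a-2 added 1600 (4.70%) and 1204 (3.53%) reads. miR-206-3p had 331 reads, and the others had between 28 reads (miR-1b-5p) and 135 reads (mir-133a-2). A precursor entry counts reads assigned to the hairpin, and whether reads of a mature arm are counted there too is not given in the sources used here.

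miR-1a-3p was abundant in the Foxa2-CreER-labelled cells of E8.5 and much lower in the Pdx1-Cre cells of E10.5 and E11.5. Its level was 26400, 15550 and 6282 CPM in the 3 libraries of E8.5, which gives 16080 ± 10070 CPM (SD, n = 3). At E9.5 it was 5261, 6354 and 25460 CPM (12360 ± 11360, SD, n = 3). The E9.5 libraries lay within the range of E8.5 apart from the lowest, and the third of them stood close to the highest E8.5 library. At E10.5 it was 734.6, 266.3 and 3518 CPM (1506 ± 1758, SD, n = 3), and at E11.5 it was 608.6, 279.9 and 1461 CPM (783.2 ± 609.7, SD, n = 3). No library of these later stages reached the lowest of the 6 earlier ones. By mean level miR-1a-3p ranked 8 of 633 mature arms in the E8.5 cells. Its rank was 16 in the E9.5 cells, 76 a day later and 109 in the E11.5 cells. These are bulk libraries, in which fewer cells of a type and less RNA per cell cannot be told apart.

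**Figure D1:**
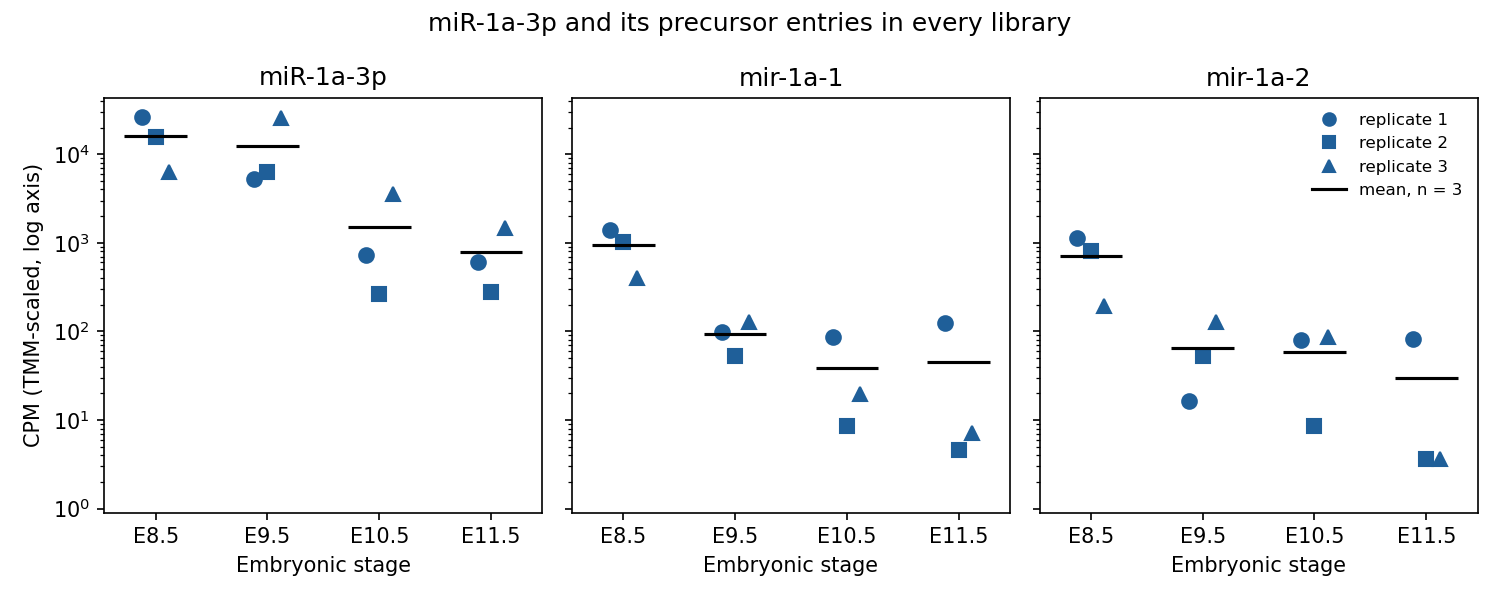
Level (CPM, log axis) of miR-1a-3p and of its precursors mir-1a-1 and mir-1a-2, 1 panel each, with a marker for each of the 12 libraries by stage and a line at the mean of each stage. For miR-1a-3p the E10.5 and E11.5 libraries sit between 266.3 and 3518 CPM, all below the lowest E8.5 or E9.5 library at 5261 CPM.

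The spread within a stage was wide, from 6282 to 26400 CPM at E8.5 and from 266.3 to 3518 CPM at E10.5. In unscaled reads the stages stood differently, because the E9.5 libraries were the smallest. miR-1a-3p had 15265, 6021 and 4345 reads at E8.5 and only 324, 595 and 1007 reads at E9.5. Its reads numbered 193, 31 and 903 in the E10.5 libraries, and 267, 306 and 1215 in those of E11.5. The reads at E9.5 thus overlapped those of E10.5 and E11.5, and the higher level at E9.5 is a level per library total.

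In the edgeR quasi-likelihood fit over all entries, 571 entries passed the filter on low counts, among them 4 of the 9 members: miR-1a-3p, mir-1a-1, mir-1a-2 and mir-133a-2. The filter asks for counts in at least 3 libraries, so a member that was high at E8.5 alone could pass through E8.5. Across the 4 stages miR-1a-3p differed (F = 13.3, adjusted p = 0.000695, edgeR). mir-1a-1 also passed (F = 5.52, adjusted p = 0.0389), but its call was lost with relative log expression factors (adjusted p = 0.0562) and in 6 of 12 fits that left out 1 library, the highest adjusted p being 0.265 without E8.5 replicate 1. The losses were without each of the 3 libraries of E8.5, without E10.5 replicate 2 and without E11.5 replicates 2 and 3. The remaining members tested, mir-1a-2 (F = 4.13, adjusted p = 0.0856) and mir-133a-2 (F = 1.04, adjusted p = 0.568), did not pass. These were 2 of 4 members tested, beside 15.9% of all entries tested.

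The steps between neighbouring stages were not tested against one another. Only from E9.5 to E10.5 was a fall of miR-1a-3p called. From E9.5 to E10.5 it fell by 3.03 on the log2 scale (SE 0.81, edgeR adjusted p = 0.0307), with 3 of 3 libraries of E10.5 below all of E9.5. It was the 1 member of 4 called in this comparison, beside 4.38% of all entries, whose median log2 fold change was 0.17. This call was lost without E9.5 replicate 3 (-1.99, adjusted p = 0.0779, edgeR), without E10.5 replicate 1 (-2.95, adjusted p = 0.0612) and without E10.5 replicate 2 (-2.49, adjusted p = 0.131). It was also lost when libraries were scaled by their totals alone (-2.73, adjusted p = 0.0537) and with limma voom (-2.99, adjusted p = 0.538).

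Between neighbouring stages on either side of that step no change of miR-1a-3p passed the test. Its log2 fold change from E8.5 to E9.5 was -0.38 (SE 0.75, adjusted p = 0.767, edgeR), and 0 of 4 members were called beside 5.6% of all entries. Here the sign depended on the scaling, since DESeq2 size factors gave 0.43, and the median of all entries stood at -0.85 rather than 0. From E10.5 to E11.5 it gave -0.95 on the log2 scale (SE 0.76, adjusted p = 0.734, edgeR), with 0 of 4 members called beside 0.35% of all entries. Neither p shows that the levels were alike.

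Over longer intervals the fall of miR-1a-3p was called each time, with every later library below every earlier one. The spread within a stage was nevertheless wide. miR-1a-3p fell by 3.41 on the log2 scale from E8.5 to E10.5 (SE 0.82, adjusted p = 0.0093, edgeR) and was the 1 member of 4 called, beside 8.58% of all entries, with a median of -0.26 over all. From E8.5 to E11.5 it fell by 4.36 (SE 0.86, adjusted p = 0.00115, edgeR), again 1 of 4 members, beside 11.6% of all entries, with a median of -0.07. Both calls held under all 10 alternative settings and without each library in turn. Both comparisons also changed Cre driver, tamoxifen and dissected region, which cannot be told apart from stage. From E9.5 to E11.5 it fell by 3.98 (SE 0.85, adjusted p = 0.00509, edgeR), 1 of 4 members beside 4.55% of all entries with a median of 0.66, and that call was lost with limma voom alone (-3.80, adjusted p = 0.116). These comparisons share libraries with one another, so they are not independent of each other.

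The precursors of miR-1a stood highest in the E8.5 libraries and at 1 to 55 reads in every later one. mir-1a-1, the hairpin on chromosome 2, stood at 1411, 1018 and 403.4 CPM at E8.5 (944.1 ± 507.9, SD, n = 3). It was 97.43, 53.39 and 126.4 CPM at E9.5, values that rest on 6, 5 and 5 reads. At E10.5 it was 87.55, 8.589 and 19.48 CPM, and at E11.5 it was 125.4, 4.573 and 7.216 CPM. Every later library lay below every E8.5 library, and 1 library of E10.5 and 1 of E11.5 stood well above the others of their stage.

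mir-1a-2, the hairpin on chromosome 18, had much the same profile. It stood at 1145, 803.4 and 192.3 CPM at E8.5 (713.5 ± 482.6, SD, n = 3). The E9.5 libraries gave 16.24, 53.39 and 126.4 CPM, those of E10.5 gave 79.93, 8.589 and 85.72 CPM, and those of E11.5 gave 82.06, 3.659 and 3.608 CPM. All 9 later libraries again lay below the 3 of E8.5. The hairpins mir-1a-1 and mir-1a-2 had equal counts in 3 libraries. Both give the same mature miR-1a-3p, so reads of the copies may have been split or shared in counting, and the copies are reported as uncertain.

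In single comparisons of stages the precursors did not pass the edgeR test over all 12 libraries. mir-1a-1 changed by -3.37 on the log2 scale from E8.5 to E9.5 (SE 1.51, adjusted p = 0.222, edgeR), by -4.57 from E8.5 to E10.5 (SE 1.58, adjusted p = 0.0648) and by -4.38 from E8.5 to E11.5 (SE 1.55, adjusted p = 0.0672). For mir-1a-2 the same comparisons gave -3.48 (SE 1.67, adjusted p = 0.246, edgeR), -3.59 (SE 1.65, adjusted p = 0.166) and -4.59 (SE 1.72, adjusted p = 0.088). For E10.5 and E11.5 these estimates were about as large as those of miR-1a-3p (-3.41 and -4.36), but their SEs were 1.55 to 1.72 against 0.82 and 0.86. For E11.5 against E8.5 both precursors were called by other settings: mir-1a-1 with DESeq2 (adjusted p = 0.00314), limma voom (0.00139) and only the compared stages in edgeR (0.0230), and mir-1a-2 with the same 3 (0.00406, 0.0042 and 0.0268). For E10.5 against E8.5 mir-1a-1 was called with these 3 settings as well (0.00448, 0.0220 and 0.0140), and mir-1a-2 with only the compared stages (0.0449).

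**Figure D2:**
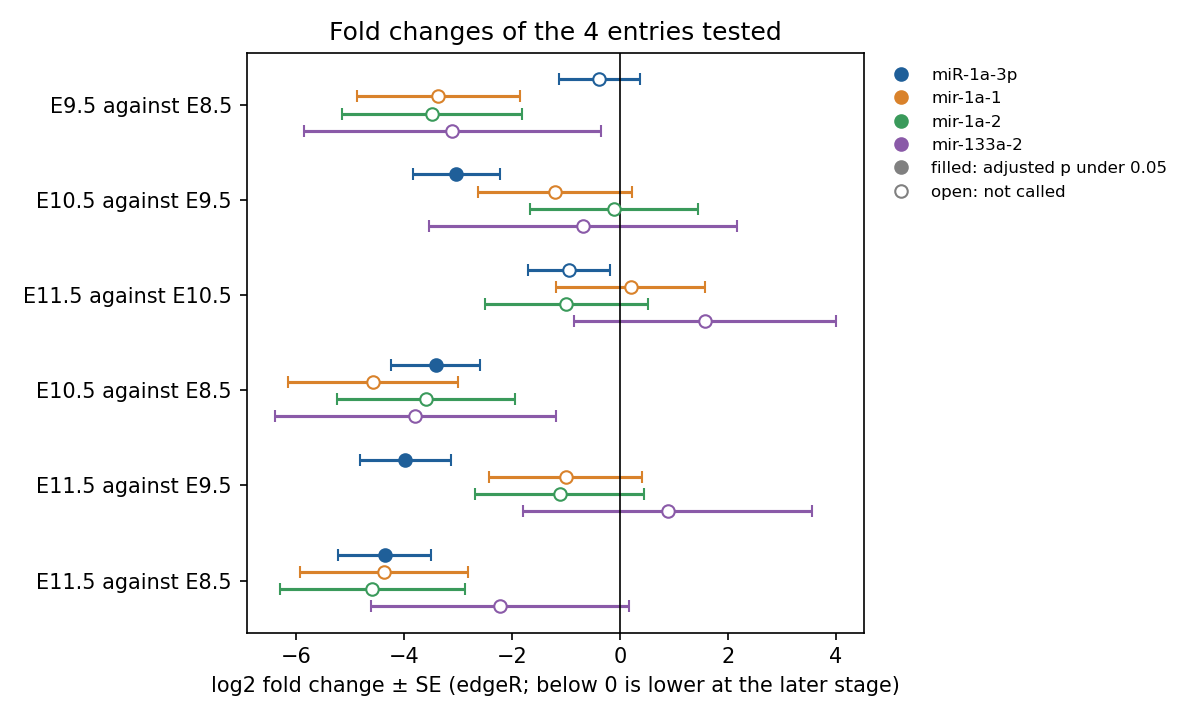
Log2 fold change (edgeR, with SE as bars, filled where called) of the 4 members that passed the filter in each of the 6 comparisons of stages. miR-1a-3p was called from E9.5 to E10.5 and in the 3 comparisons that span more than 1 step, and no precursor was called in any of the 6.

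The fold change plot sets mature strand and precursor side by side at the E8.5 to E9.5 step. There miR-1a-3p gave -0.38 and its precursors -3.37 and -3.48, and none of the 3 passed the test. The reads of mir-1a-1 came to 5.35, 6.54 and 6.42% of those of miR-1a-3p in the same library at E8.5. At E9.5 they came to 1.85, 0.840 and 0.497%, so the groups did not overlap. An exact two-sided permutation test of the log2 ratio gave a difference of -2.73 and p = 0.1, the smallest that 3 libraries against 3 allow. The same share of mir-1a-2 was 4.34, 5.17 and 3.06% at E8.5 and 0.309, 0.840 and 0.497% at E9.5, a difference in log2 ratio of -3.02 that again gave an exact permutation p of 0.1. Its E9.5 shares rest on 1, 5 and 5 reads. In E9.5 replicates 2 and 3 both hairpins had 5 reads, so the tests of the hairpins are not independent of each other.

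For mir-1a-1 the precursor share at later stages was 11.9, 3.23 and 0.554% in the E10.5 libraries, and 20.6, 1.63 and 0.494% in those of E11.5. The exact permutation test gave p = 0.3 for E10.5 against E9.5 and p = 0.9 for E11.5 against E10.5, both two-sided. For mir-1a-2 it was 10.9, 3.23 and 2.44% in the E10.5 libraries, all above those of E9.5, with a difference in log2 ratio of 3.13 and the smallest exact permutation p that can be reached, 0.1. The E11.5 libraries gave 13.5, 1.31 and 0.247%, which spanned those of E10.5 (-1.43, exact permutation p = 0.5). The high mir-1a-1 shares of E10.5 replicate 1 and E11.5 replicate 1 rest on 23 and 55 precursor reads. The 3.23% of E10.5 replicate 2 rests on 1 read of each hairpin.

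**Figure D3:**
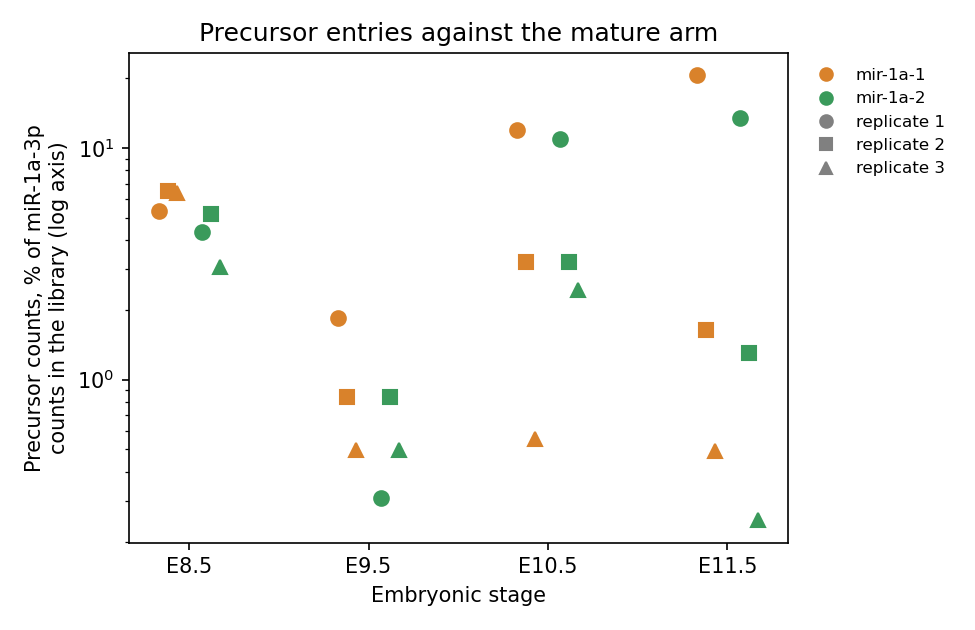
Reads of mir-1a-1 and of mir-1a-2 as a percentage of miR-1a-3p reads (log axis) in each of the 12 libraries. The E8.5 libraries lie between 3.06 and 6.54%, the E9.5 libraries between 0.309 and 1.85%, and those of E10.5 and E11.5 spread from 0.247 to 20.6%.

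miR-133a, the partner of miR-1 on both transcripts, was scarcely seen. miR-133a-3p, the arm that represses targets in muscle, had 75, 1 and 1 reads at E8.5. The E9.5 libraries held 0, 0 and 55 reads of it, and it had 0 reads in all 6 libraries of E10.5 and E11.5. Nearly all of its 132 reads therefore lay in 2 libraries, at 129.7 CPM in E8.5 replicate 1 and at 1391 CPM in E9.5 replicate 3. These were also the libraries with the highest miR-1a-3p at their stages. They were the only 2 libraries in which reads were kept to 36 bases rather than 35. Whether that difference bears on these counts was not tested. miR-133a-3p failed the filter and was not tested.

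The other arm and the hairpins were as sparse. miR-133a-5p had 52 reads in E8.5 replicate 1 and at most 1 in any other library. mir-133a-1 had 74, 0 and 39 reads at E8.5 and at most 2 reads in any later library. mir-133a-2 had the same count as mir-133a-1 in 11 libraries and differed only in E11.5 replicate 1, where it had 17 reads and mir-133a-1 had 0. Both hairpins carry miR-133a, and the counts of these copies are reported as uncertain. mir-133a-2 was the only member of the miR-133 family tested, and its log2 fold changes from E8.5 were -3.10 to E9.5 (SE 2.76, adjusted p = 0.49, edgeR) and -3.79 to E10.5 (SE 2.61, adjusted p = 0.393).

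miR-206-3p, whose sequence is shown above, had more than 10 reads only in libraries of E11.5. Its level there was 241.6, 0 and 250.1 CPM, the first of these from 106 reads, which gives 163.9 ± 142 CPM (SD, n = 3). E11.5 replicate 2, with 0 reads, was the deepest of the 12 libraries, and 3 counts stand for 2.74 CPM in it. The E8.5 libraries had 10, 2 and 2 reads of it, those of E9.5 had 1, 0 and 0, and those of E10.5 had 2, 0 and 0. E11.5 replicates 1 and 3 thus stood above all earlier libraries, while replicate 2 was at 0 like 4 of the earlier ones. With reads above the filter in 2 libraries, miR-206-3p was not tested. miR-1b-5p had 27 and 1 reads in E8.5 replicates 1 and 2 and 0 in the other 10 libraries.

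**Figure D4:**
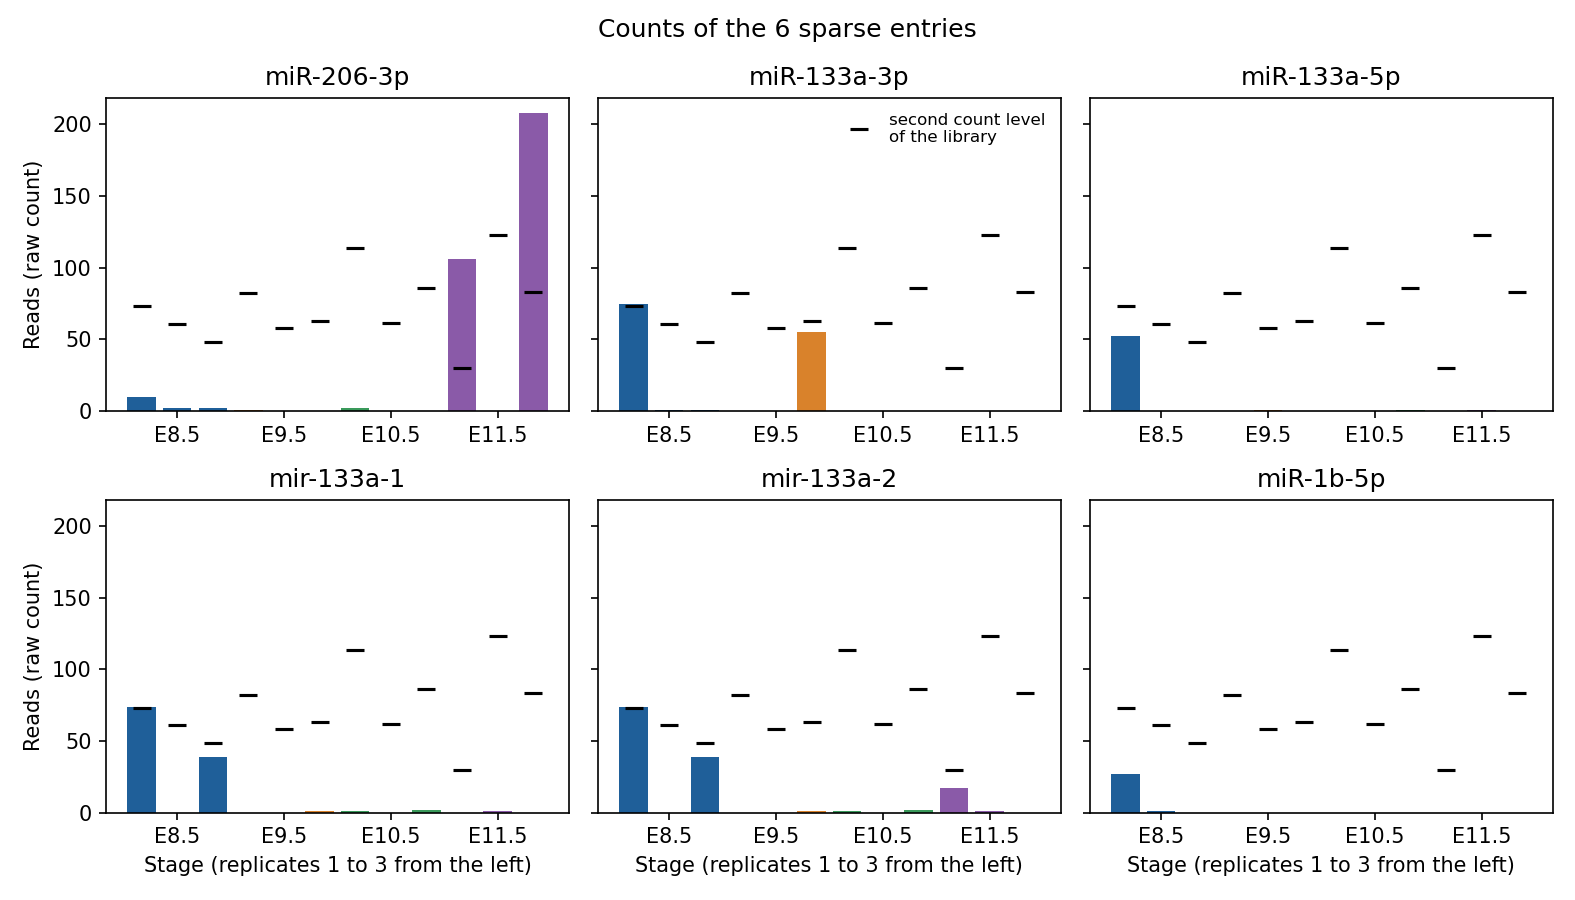
Reads of the 6 sparse members (miR-206-3p, miR-133a-3p, miR-133a-5p, mir-133a-1, mir-133a-2 and miR-1b-5p) as bars for each of the 12 libraries, with a dash at the second count level of the library. Most values are 0 to 2 reads, and miR-206-3p stands above the second count level in E11.5 replicates 1 and 3, at 3.55 and 2.50 times it.

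The size of these isolated counts has a counterpart in the libraries themselves. In each library the counts of rare entries gathered at a few reads and again around a second level, which is the peak of the count distribution above the trough and ran from 29.9 reads (E11.5 replicate 1) to 123 reads (E11.5 replicate 2). The 75 reads of miR-133a-3p at E8.5 were 1.02 times that level and its 55 reads at E9.5 were 0.872 times. The reads of miR-206-3p in E11.5 replicates 1 and 3 were 3.55 and 2.50 times the level. What sets this level was not tested. For miR-1a-3p the reads were 208.3, 98.8 and 89.7 times the level at E8.5, and 3.94, 10.2 and 15.96 times at E9.5. For E10.5 they were 1.70, 0.503 and 10.49 times, and for E11.5 they were 8.94, 2.49 and 14.6 times. On this scale E8.5 stood above all other libraries, while E9.5, E10.5 and E11.5 overlapped. These multiples are of reads not scaled to the library total, which was smallest for E9.5. A fit of counts divided by this level and rounded, a setting chosen after seeing the data, again scaled each library to its own total. It therefore did not test these multiples. That fit called miR-1a-3p from E9.5 to E10.5 (log2 fold change -2.422). The same fit did not call it from E8.5 to E9.5.

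The entries whose profile was most like that of miR-1a-3p were sought among tested entries outside the member list, so no member could appear. By Pearson r of log2 CPM over the 12 libraries, the 5 nearest of 567 other entries were miR-292a-5p (r = 0.895), miR-295-3p (0.854), miR-302d-3p (0.839), mir-302b (0.827) and mir-292a (0.826), all from the miR-290 and miR-302 clusters of pluripotent and early embryonic cells. The median r over the 567 entries was 0.0310, and 7 entries exceeded 0.8. These values describe 12 libraries that share stage and depth, and carry no test.

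All 5 had their highest mean level at E8.5 and their lowest at E11.5, as miR-1a-3p had. miR-302d-3p went from 13510 ± 4392 to 2086 ± 1266 CPM (SD, n = 3) between E8.5 and E9.5. miR-292a-5p went from 10830 ± 330.9 to 5007 ± 1814 CPM (SD, n = 3) over these stages. The own precursors of miR-1a-3p had lower r with it, 0.732 for mir-1a-1 and 0.731 for mir-1a-2, and mir-133a-2 had 0.404.

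Other miRNAs linked to muscle were counted beside the members. Of 22 listed arms that act in smooth or striated muscle or in myogenic differentiation, 21 were in the table and 16 were tested. Between E8.5 and E10.5, 1 of the 16 rose (miR-24-3p, 2.30) and 0 fell, beside the 8.58% of all entries called. Between E8.5 and E11.5, 3 of the 16 rose and 0 fell, beside 11.6% of all entries, and the median log2 fold change of the list was 0.71 beside -0.07 for all entries. Those 3 were miR-24-3p (2.12), miR-23b-3p (2.15, adjusted p = 0.015, edgeR) and miR-214-3p (7.17, adjusted p = 0.025), which also has mesenchymal cells as a known source. Between E8.5 and E9.5, 3 of the 16 rose and 1 fell, beside 5.6% of all entries. miR-24-3p rose by 1.98 on the log2 scale (SE 0.37, adjusted p = 0.00086, edgeR), and miR-27b-3p and miR-23b-3p rose with it, by 2.18 and 1.98.

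The arm that fell at that step was miR-143-3p of smooth muscle and mesenchyme (-2.59, adjusted p = 0.00208, edgeR), and it rose again from E9.5 to E10.5 (2.02, adjusted p = 0.0237). That rise was the 1 call of the 16 in that comparison, beside 4.38% of all entries. From E10.5 to E11.5 and from E9.5 to E11.5 none of the 16 was called in either direction. miR-23b and miR-27b share a cluster with 1 of the genes for miR-24, so the changes of these arms are not independent of each other.

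Marker lists of several cell types varied by stage, and the muscle and heart list includes miR-1a-3p itself. The sum of the muscle and heart list, of which 3 of 7 arms were in the table, was 6286 to 26550 CPM in E8.5 libraries and 5278 to 26850 CPM in those of E9.5, against 266.3 to 3518 CPM for E10.5 and 279.9 to 1711 CPM for E11.5. By mean, miR-1a-3p alone made up 16080 of 16130 CPM at E8.5 and 783.2 of 947.1 CPM at E11.5. Of the list's defining members other than miR-1a-3p, miR-133a-3p was at 0 reads in 8 libraries and miR-206-3p in 5. By mean miR-206-3p did not follow miR-1a-3p, since it went up from 8.451 (E8.5) to 163.9 CPM (E11.5). The mean of miR-133a-3p was highest at E9.5, but it rests there on the 55 reads of replicate 3. No library of E10.5 or E11.5 had a read of miR-133a-3p, and its reads were too few to tell whether it followed miR-1a-3p. The endothelial list (2 of 2 arms of miR-126a) was also highest at E8.5, at 1821 to 2281 CPM, and lay between 32.48 and 429.5 CPM later. The mesenchymal list (7 of 7) ranged over 7288 to 13690 CPM in E8.5 libraries, 1655 to 8598 CPM for E9.5, 3607 to 13530 CPM for E10.5 and 4315 to 9364 CPM for E11.5, so that all stages overlapped.

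Markers of the labelled pancreatic and epithelial cells were lowest at E8.5. The pancreatic list (3 of 3 arms, miR-375-3p and the miR-7 family) was 23020 to 27580 CPM at E8.5 and 101900 to 144800 CPM at E10.5, and stood at 76620 to 118300 CPM at E11.5. The epithelial list (5 of 5, the miR-200 family) was 9026 to 11030 CPM at E8.5 and 23400 to 38950 CPM at E11.5. Liver miR-122-5p, the 1 hepatic marker, was 462.6 to 593.2 CPM at E8.5 and 38760 to 91250 CPM at E9.5. The neural list (3 of 3) stayed at or below 507.5 CPM in every library, the erythroid list (3 of 5) lay between 48.72 and 1313 CPM, and the leukocyte list (2 of 3) reached 2655 CPM at E9.5 and at most 59.28 CPM at any other stage. The part of these cell types in the fall of miR-1a-3p was not tested.

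**Figure D5:**
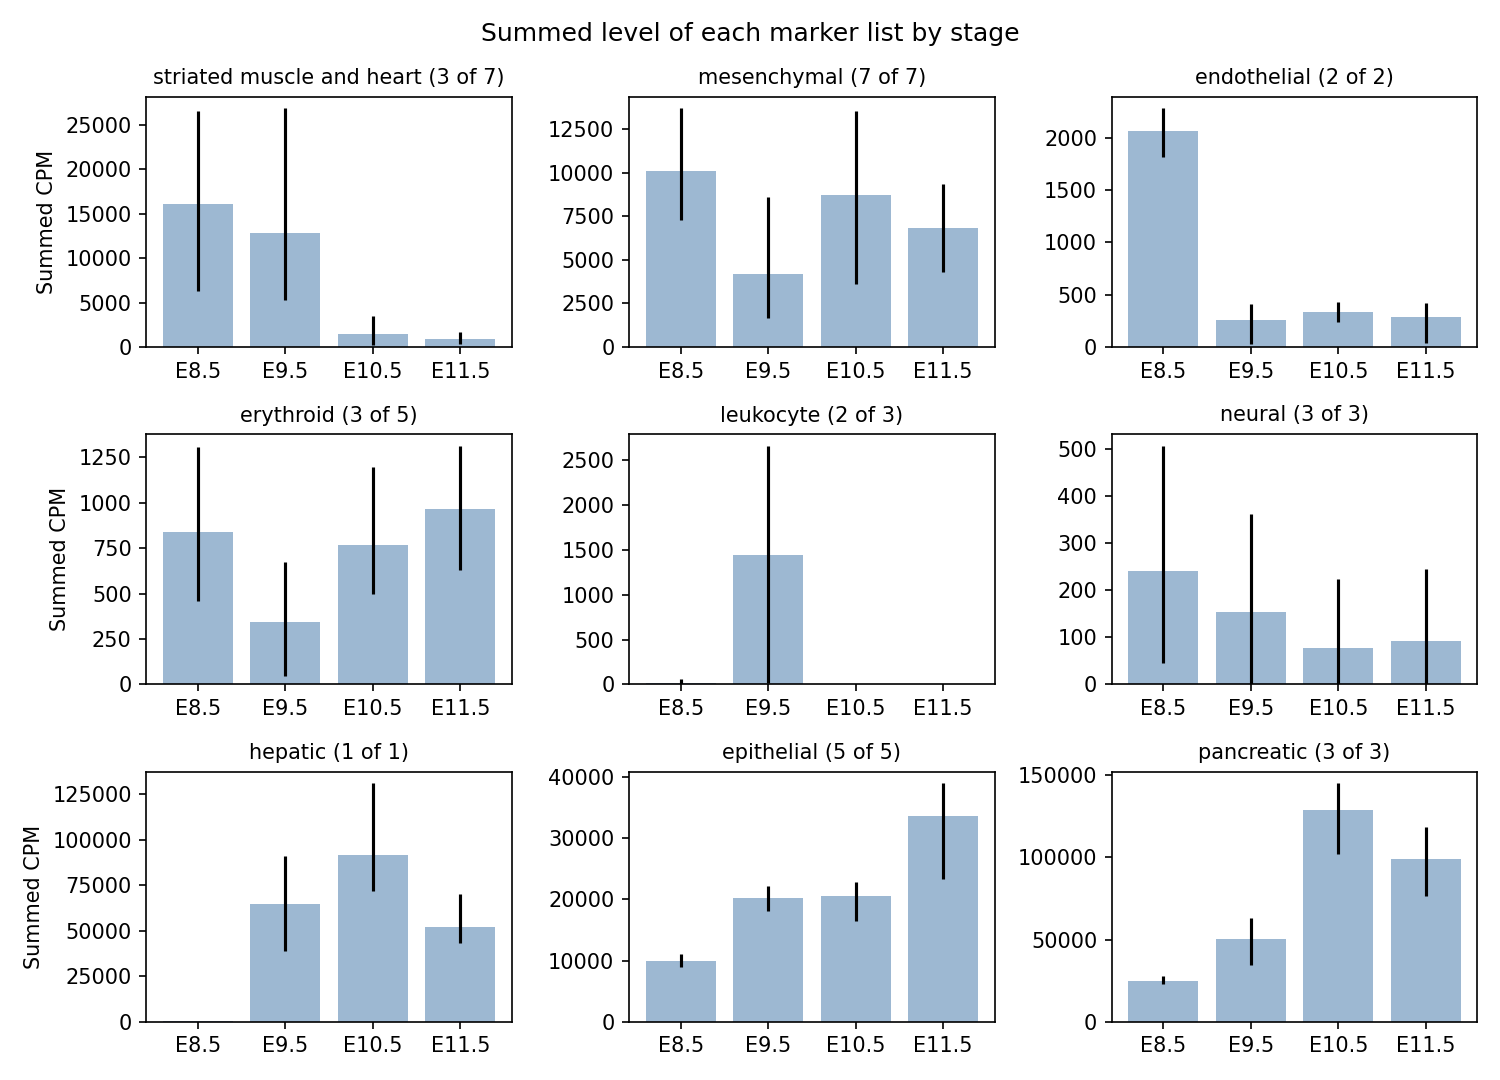
Summed level (CPM) of each cell type marker list by stage, with bars for the mean of 3 libraries, lines from the lowest to the highest library, and an axis of its own for each list. The striated muscle and heart list averages 16130 CPM at E8.5 and 947.1 CPM at E11.5, and the pancreatic list 25110 and 98690 CPM. In the striated muscle and heart list miR-1a-3p alone averages 16080 and 783.2 CPM.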

How the data were processed

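The authors deposited 1 table of raw counts, reads per mature or precursor miRNA entry, not normalised. Per the study's methods, 3′ adapters and 4 random bases were trimmed, and reads of 17 to 35 bases (36 in 2 libraries) were aligned to mm10 with STAR and counted in COMPSRA. The random bases were not used to count molecules. Members and lists were chosen with earlier results of these data known. The text names all members, 22 further muscle-linked arms counted by call, and the 5 entries nearest to miR-1a-3p by Pearson r (TMM log2 CPM, prior count 2). The same ranking for miR-133a-3p was not made, because it failed the filter. Counts were tested with edgeR 4.0.16 (R 4.3.3; glmQLFTest, TMM factors 0.732 to 1.17, filterByExpr with minimum count 10 and minimum total 15, Benjamini-Hochberg) in 1 fit of 12 libraries by stage, and called at an adjusted p under 0.05. SE was the log2 fold change over the square root of F, with prior count 0.125. Alternatives included DESeq2 1.42.0 and limma 3.58.1. The edgeR test alone was tried on simulated counts, for E9.5 against E8.5, and its error rates are not reported here. The second count level was the highest peak above the trough of each library's log counts.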

Additional observations from a re-analysis of the deposited data

How the results depend on the processing

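Some results turned on the scaling, the filter or single libraries, and the cause was not tested unless stated. For miR-1a-3p, E9.5 against E8.5 reversed to a log2 fold change of 0.43 with relative log expression factors, 0.43 with DESeq2, 0.35 when only the compared stages entered the fit and 0.14 without mir-6236 and mir-6240, and ran from -1.42 to 0.21 over fits that left out 1 library. E10.5 against E9.5 was no longer called with library size alone (-2.73) or limma voom (-2.99), and ranged from -4.54 to -1.99 without 1 library. E11.5 against E10.5 ranged from -1.76 to 0.64, the positive value being without E10.5 replicate 3. E11.5 against E9.5 was not called with limma voom (-3.80). Precursors with few reads changed sign more often. mir-1a-2 from E9.5 to E10.5 gave 0.075 with library size alone and -0.65 to 0.71 without 1 library, and mir-133a-2 gave -1.70 to 3.90. From E10.5 to E11.5, mir-1a-1 gave -1.07 with limma voom and -2.56 to 1.59 without 1 library, mir-133a-2 gave -1.08 and -2.38 to 2.30. From E9.5 to E11.5, mir-133a-2 gave -2.004 with limma voom and -3.03 to 5.40 without 1 library. Dividing each library by its second count level, with rounding, was a setting chosen after seeing the data, and its fit again scaled libraries to their totals. It gave mir-1a-2 a value of 1.29 from E10.5 to E11.5 and 1.29 from E9.5 to E11.5, and mir-1a-1 one of 1.96 from E9.5 to E11.5. These values rest on E11.5 replicate 1 alone, since rounding left no counts of these hairpins in any other library of the stages compared.

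The number of members called moved as follows. For E10.5 against E9.5 it was 0 with library size alone and limma voom and 2 without the filter, with 0 to 2 without 1 library. The added member without the filter was miR-133a-3p, whose reads rest on 1 library of E9.5. The members added against E8.5 were mir-1a-1 and mir-1a-2. For E10.5 against E8.5 it was 2 with DESeq2 and limma voom, and 3 with only the compared stages and with the second count level. For E11.5 against E9.5 it was 2 without the filter and 0 with limma voom, with 1 to 2 without 1 library. For E11.5 against E8.5 it was 3 with DESeq2, limma voom, only the compared stages and the second count level, with 1 to 3 without 1 library. Across the 4 stages it was 1 with relative log expression factors, 1 with mature arms only, where no precursor was tested, and 1 to 4 without 1 library, where miR-133a-3p entered the test and was called in 9 of 12 fits. Over the 10 alternatives the number of all entries called ran from 17 to 60 (E9.5 against E8.5), 1 to 52 (E10.5 against E9.5), 1 to 9 (E11.5 against E10.5), 41 to 108 (E10.5 against E8.5), 6 to 61 (E11.5 against E9.5) and 60 to 147 (E11.5 against E8.5). At 3 libraries a stage and the depth of E9.5, a member at 32.0 to 75.9 CPM there stands at 3 reads.

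Replicate numbers did not pair the libraries: over 18 same-numbered pairs the correlation of deviations from the stage means was -0.148 to 0.113, with 1 pair over 0.1, and 3 of 12 libraries were closest to their own number. With the replicate number as a block, 2 members were called for E11.5 against E8.5, the second being mir-1a-1 (adjusted p = 0.0378, edgeR), mir-1a-1 changed by -0.29 from E10.5 to E11.5, and 61 entries in place of 66 were called for E11.5 against E8.5.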
